A study of Mus musculus with 2 samples.

Results

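The 8 genes described here encode proteins that carry calcium into and out of mitochondria: Mcu, Mcub, Micu2, Micu3, Smdt1, Mcur1, Letm1 and Slc8b1. They were taken by gene symbol from a named list that sets no threshold on measured values but was drawn up with earlier results of these data known. All 8 were found among the 55536 annotated genes of the files. Their RNA was measured by total RNA sequencing of heart tissue of male B6CASTF1/J mice at 36 days of age. B6CASTF1/J is the F1 hybrid of the C57BL/6 and CAST strains. The animals came from The Jackson Laboratory, and the labels name no treatment and no second genotype. The series holds 1 group of 2 hearts, labelled biological replicates 1 and 2 under the same donor entry, so every comparison below is between genes, transcripts or these 2 hearts. No p-value is given, because the smallest p that sign permutations of 2 hearts can reach is 0.5. Libraries were made from 300 ng of RNA after reduction of ribosomal RNA, with added ERCC spike-in RNA.

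The mitochondrial calcium uniporter is a channel of the inner mitochondrial membrane that lets calcium flow into the matrix, driven by the membrane potential. Its pore is formed by the MCU protein, to which the paralog MCUB can join as a subunit that lowers conductance. EMRE, the product of Smdt1, is a small membrane protein needed for the animal pore to conduct, and it tethers the gatekeepers of the MICU family, EF-hand proteins that keep the channel shut at low calcium. MCUR1 is a membrane protein described as an assembly factor of the complex. Calcium leaves the matrix in exchange for sodium through NCLX, the product of Slc8b1, while LETM1 is an inner-membrane protein described as an exchanger of protons for calcium or potassium. In heart muscle this traffic links the calcium of each beat to the dehydrogenases of the matrix.

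In mm10 coordinates, Mcu lies at chr10:59446984-59616692 and Mcub at chr3:129914960-129970206, both on the minus strand. Smdt1 lies at chr15:82338959-82349091 (plus), Micu2 at chr14:57916261-57999262 (minus), Micu3 at chr8:40307458-40386308 (plus) and Mcur1 at chr13:43538393-43560191 (minus). Letm1 (chr5:33739673-33782817, minus) and Slc8b1 (chr5:120511168-120534024, plus) are on the same chromosome.

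The pore gene and its paralog differ in sequence around their shared pore motif. The bases below are coding exon sequence (GENCODE M21, mm10, minus strand) around the codons of the DIME motif, which lines the mouth of the pore and is given in capitals. Both stretches lie in exon 6 of 8 of the main transcript, at chr10:59454979-59455062 for Mcu and chr3:129916972-129917055 for Mcub.
Mcu-202: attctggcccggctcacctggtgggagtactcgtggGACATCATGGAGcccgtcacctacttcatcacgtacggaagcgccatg
Mcub-201: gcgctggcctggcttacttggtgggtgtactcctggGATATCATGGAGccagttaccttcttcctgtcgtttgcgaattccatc
The 12 bases in capitals were identical at 11 positions, and the 84 bases at 61 positions (72.6%). Over the aligned coding sequences the identity was 57.3% (583 of 1017 bases), and the longest exact stretch shared by the whole transcripts was 12 bases. All codon spellings of the motif were searched on the transcript strand only and in any frame, and 107 of 21901 protein-coding genes (0.489%) held a match somewhere in a transcript. No gene-level count of the 8 genes carried any assignment uncertainty in the first of the 2 deposited quantifications, where the posterior SD of the count was 0 for all 8 in both hearts.

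Levels of the 8 genes spanned 77.4-fold. Values are in TPM, the length-normalised share of transcripts, a scale that allows levels of different genes to be set side by side, from the first quantification. Smdt1 was the highest at 71.0 TPM in replicate 1 and 74.6 TPM in replicate 2 (mean 72.8 ± 2.55, SD, n = 2). Letm1 followed at 51.6 and 59.4 TPM (55.5 ± 5.51, SD, n = 2). Its level depended on how its short transcript models were counted, as described below. The gatekeeper gene Micu2 stood at 25.2 and 27.7 TPM (26.4 ± 1.72, SD, n = 2), and the assembly factor gene Mcur1 at 17.3 and 18.1 TPM (17.7 ± 0.622, SD, n = 2).

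The pore gene Mcu itself was the fifth of the 8, at 8.84 and 8.85 TPM (8.85 ± 0.00707, SD, n = 2), with 818 and 815 expected counts. This lies close to the median of 8.69 TPM over nuclear protein-coding genes that reached 1 TPM in both hearts. Slc8b1, the sodium-calcium exchanger gene, had 3.93 and 5.13 TPM (4.53 ± 0.849, SD, n = 2). Micu3, a gatekeeper paralog best known from neurons, had 2.01 and 1.79 TPM (1.90 ± 0.156, SD, n = 2). Mcub was the lowest at 0.90 and 0.98 TPM (0.94 ± 0.0566, SD, n = 2), from 37 and 34 expected counts.

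No 2 neighbours in this order overlapped between the hearts. The intervals deposited with the values, whose level the header does not state, did overlap for Micu3 and Mcub: they ran from 1.70 to 2.33 and from 1.5 to 2.09 TPM for Micu3, against 0.838 to 1.98 and 0.889 to 2.27 TPM for Mcub. By mean TPM the genes ranked between 750 (Smdt1) and 11251 (Mcub) of 22015 nuclear protein-coding genes, with Mcu at 5407. In both hearts 7 of the 8 reached 1 TPM, against 49.7% of all nuclear protein-coding genes, and Mcub fell short in both. In the second quantification 7 of 8 did so too, against 51.1%.

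**Figure D1:**
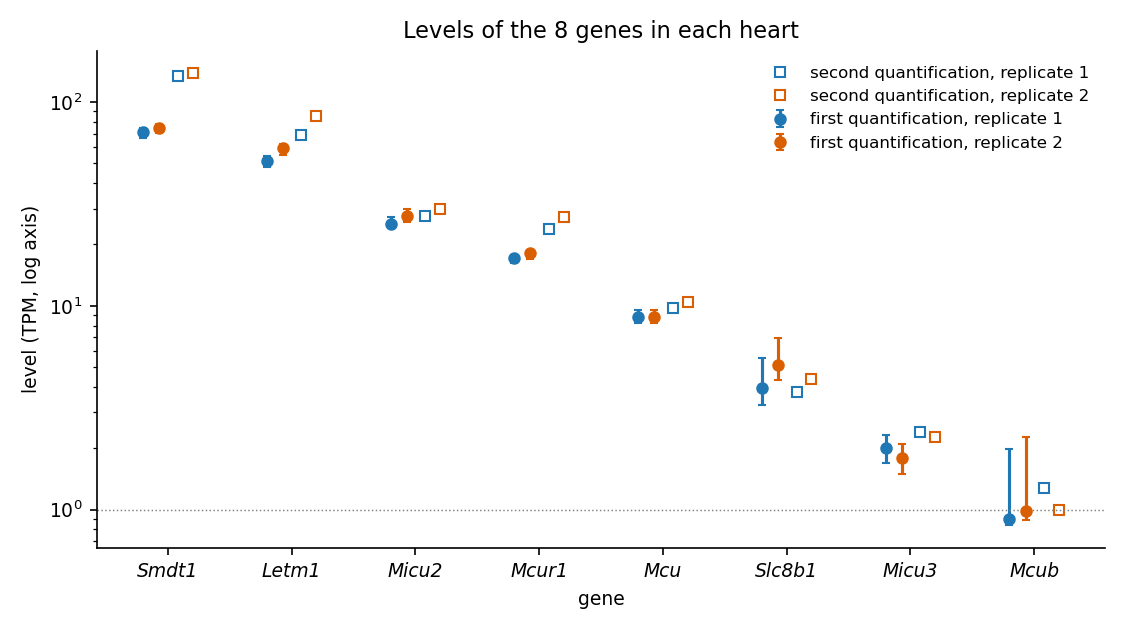
Levels of the 8 genes in TPM on a log axis, in order of mean level. Filled circles are the first quantification in each heart with its deposited interval, open squares the second quantification, and the dotted line marks 1 TPM; Smdt1 stands highest and Mcub lowest in both quantifications, and the circles of Mcu at 8.84 and 8.85 TPM coincide.

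Set against the pore gene within each heart, the subunits and regulators fell on both sides of it. Smdt1 was 8.03-fold above Mcu in replicate 1 and 8.42-fold in replicate 2, so transcripts of the small tether far outnumbered those of the pore. Micu2 was 2.85-fold and 3.13-fold above Mcu, and Mcur1 1.95-fold and 2.05-fold. Mcub was 9.82-fold and 9.03-fold below Mcu. Micu3 was 4.40-fold and 4.94-fold below Mcu, and 12.6-fold and 15.5-fold below Micu2. Among these 2 gatekeeper genes, Micu2 was the main one in both hearts. All of these ratios kept their side of 1 in both hearts and under each alternative measure of level that was tried.

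Some ratios changed in size with the quantification. In the second quantification Smdt1 reached 134 and 138 TPM, 1.87-fold its mean in the first, and the ratio of Smdt1 to Mcu was 13.6 and 13.2. Smdt1 is the shortest of the 8, with an average transcript length of 689 and 687 nucleotides in the 2 hearts. Mcur1 stood 2.42-fold and 2.60-fold above Mcu there, against about 2-fold in the first. The ratio of Micu2 to Mcu was 2.82 and 2.85, close to its values in the first.

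**Figure D2:**
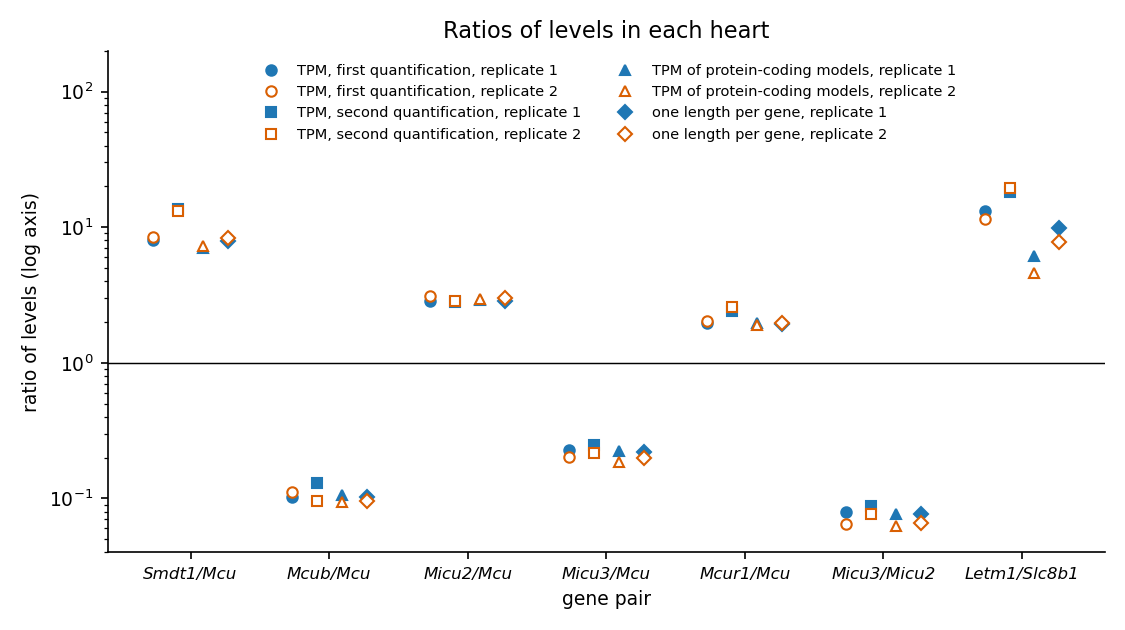
Ratio of levels for 7 gene pairs on a log axis, in replicate 1 (filled) and replicate 2 (open), by 4 measures of level. The pairs set against Mcu keep their side of 1 in every measure drawn, and the Letm1 to Slc8b1 pair has the widest spread, from 4.56 to 19.5.

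Letm1 showed how far a level per length can depart from a count. The full-length coding model, Letm1-201 (5272 nucleotides, 14 exons), held 3901 and 3883 of the gene's 4516 and 4652 expected counts. Yet it made up only 22.4 and 22.2 TPM, that is 43.4% and 37.4% of the gene's TPM. In the first quantification the rest lay mostly on a pair of short models, and the bases below show where the first of them differs from the coding model. Letm1-205 (642 nucleotides, of the nonsense-mediated decay class, which is annotated for transcripts expected to be degraded) shares all but 4 of its bases with Letm1-201. Those 4 bases, in capitals, extend its first exon (chr5:33778604-33778644, minus strand) beyond the end of exon 2 of Letm1-201 (chr5:33778608-33778668); 12 bases on each side of the junction are shown in lower case.
Letm1-201: gacgagccgtgagagtgttctgtc
Letm1-205: gacgagccgtgaGTAAgagtgttctgtc
Letm1-206, a processed transcript of 747 nucleotides, has 0 bases outside Letm1-201.

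Letm1-205 was assigned 272 and 444 expected counts with posterior SDs of 25.9 and 26.3, giving 14.9 and 24.2 TPM. It was 1.58-fold higher in replicate 2 after scaling, and 1.49-fold higher in the second quantification, from 234 and 360 estimated counts. Letm1-206 held 13.7 and 12.4 TPM in the first quantification but 5.97 and 3.65 TPM in the second. There Letm1-202, a processed transcript of 488 nucleotides that had 0.13 and 0 TPM in the first, took 15.8 and 23.5 TPM, so which short models beside Letm1-205 carried the level differed between quantifications. In replicate 2, Letm1-205 took 40.8% of the gene's TPM and so stood above the coding model. The coding model itself was 0.965-fold in replicate 2 relative to replicate 1, and the gene's count 0.998-fold. The gene's TPM was higher in replicate 2 (59.4 against 51.6) although its scaled counts were level, and its average transcript length was 2417 against 2699 nucleotides.

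Counted by coding models alone, Letm1 had 22.5 and 22.3 TPM and fell below Micu2, which had 24.8 and 25.7 TPM on its coding model. With all of its counts placed on the length of Letm1-201, the level was 25.9 and 26.6 TPM, and the 2 hearts overlapped those of Micu2 at 25.0 and 26.3 TPM. The ratio of Letm1 to Slc8b1 moved accordingly. It was 13.1 and 11.6 over all transcripts, 6.17 and 4.56 over coding models, and 9.81 and 7.74 with a single length per gene. It was 18.3 and 19.5 in the second quantification. Letm1 was thus above the sodium-calcium exchanger gene by every measure tried, by a factor that differed with the transcript models counted.

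**Figure D3:**
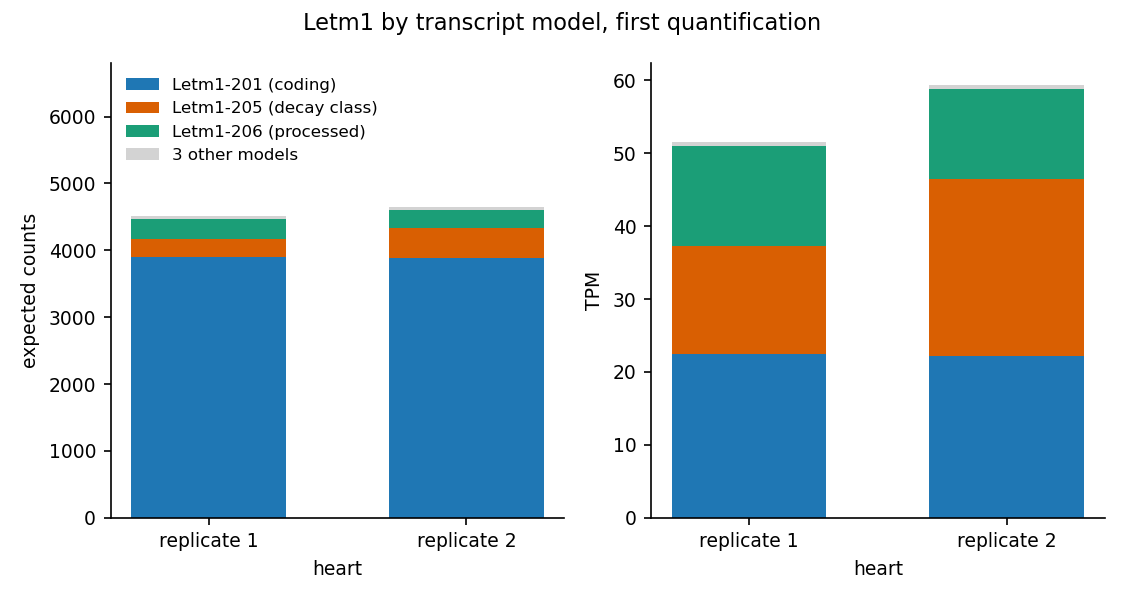
Expected counts (left) and TPM (right) of Letm1 in each heart, stacked by transcript model in the first quantification. The coding model fills most of the count bars but 43.4% and 37.4% of the TPM bars, and the segment of Letm1-205 is larger in replicate 2.

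Smdt1 had a comparable pair of models. Its main transcript Smdt1-201 carried 84.7% and 84.0% of the gene's TPM. Smdt1-204, of the nonsense-mediated decay class, ends its first exon at position 82346220 of chromosome 15 instead of 82346269 and so lacks 49 coding bases, shown in capitals between 12 flanking bases on each side (plus strand).
Smdt1-201: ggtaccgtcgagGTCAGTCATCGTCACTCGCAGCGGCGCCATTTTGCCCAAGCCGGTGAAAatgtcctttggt
Smdt1-204: ggtaccgtcgagatgtcctttggt
The first quantification gave Smdt1-204 175 and 190 expected counts, with posterior SDs of 22.9 and 23.7. The second gave it 1.67 and 93.0 estimated counts, and instead gave Smdt1-203, a coding model left at 0 in the first, 133 and 109. The split between the minor models of Smdt1 therefore differed between quantifications, while Smdt1-201 led in both.

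The pore and the other regulators were each carried mainly by a single model. Mcu-202 took 96.1% and 96.3% of the TPM of Mcu, and Micu2-201 took 98.3% and 93.0% of that of Micu2. Mcur1-201 took 96.4% and 90.8% in the first quantification but 78.2% and 67.1% in the second, where Mcur1-202, a retained-intron model of 579 nucleotides, took 20.1% and 30.8%. Mcub-201 took 100% and 74.8%, of few counts.

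Micu3 was the exception among the gatekeepers. Its main model was Micu3-203 with 58.1% and 57.0% of the TPM, a transcript of 8 exons that starts inside the gene and holds 785 of the 1569 coding bases of Micu3-201. Micu3-201, with 15 exons and the full coding sequence, had 0.72 TPM in replicate 1, from 51.7 expected counts there and 42.3 in replicate 2. Micu3-203 had 93.8 and 82.3 expected counts. Both models were detected at similar shares in the second quantification, where Micu3-203 took 53.0% and 50.2%.

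For Slc8b1 the leading model was not settled. In replicate 1 it was Slc8b1-204 with 29.6% of the TPM, and in replicate 2 Slc8b1-201 with 51.5%. Slc8b1-204 was assigned 105 counts in replicate 1 and 0 in replicate 2, with posterior SDs of 30.8 and 22.5, and 7 of its 2775 bases lie outside Slc8b1-201. In the second quantification it had 64.4 and 34.4 estimated counts, and Slc8b1-201 led in both hearts. Across the 8 genes the main model was the same in both hearts for 6 genes in the first quantification and for 7 in the second.

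The 8 genes together drew 11465 and 11858 expected counts, and the 2 hearts were close to each other for most of them. A ratio is replicate 2 over replicate 1, from expected counts scaled by edgeR's TMM factors with a prior count of 1, and its 95% Clopper-Pearson interval covers counting error only. With a mean count of at least 50 as the minimum, 7 of the 8 could be read, all but Mcub. Of these, 0 differed 2-fold, against 1.28% of the 12541 genes tested by the same rule, and 0 differed 1.5-fold, against 4.27%. Their median log2 ratio was -0.0022, beside 0.00025 over all genes tested, and 3 of the 7 lay above 0, against 50.1% of all genes tested. Their median absolute log2 ratio was 0.036, beside 0.108 over all genes tested.

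The log2 ratio was -0.05 for Mcu (interval -0.19 to 0.091), 0.026 for Smdt1 (-0.080 to 0.13) and 0.036 for Micu2 (-0.055 to 0.13). It was -0.031 for Mcur1 (-0.11 to 0.051) and -0.0022 for Letm1 (-0.062 to 0.057). These 5 genes, from 815 to 4652 counts per heart, thus have intervals that all include 0. For Micu3, with 155 and 139 counts, the log2 ratio was -0.20 (-0.54 to 0.14). For Mcub it was -0.16 (-0.88 to 0.54), and a difference within that range was not detectable at this depth. Scaling to spike-in totals shifted the median of the 7 to 0.072 and turned the small negative values of Mcu, Mcur1 and Letm1 to 0.023, 0.042 and 0.072.

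Slc8b1 was the only one of the 8 whose interval left out 0. It had 249 counts in replicate 1 and 325 in replicate 2, a 1.26-fold difference (log2 0.34, interval 0.097 to 0.58). The second quantification gave a log2 ratio of 0.30, and the values by DESeq2 size factors, library totals and spike-in totals were 0.34, 0.36 and 0.41. It was the only one of the 7 with a difference of 25% or more in either direction, against 14% of all genes tested (6.29% higher in replicate 2). A ratio of its size in either direction was found in 12.9% of all genes tested, and in 13.7% of the 4063 genes with a mean count within 2-fold of that of Slc8b1. The difference exceeded the counting error, and with 2 hearts no spread between animals can be set beside it.

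**Figure D4:**
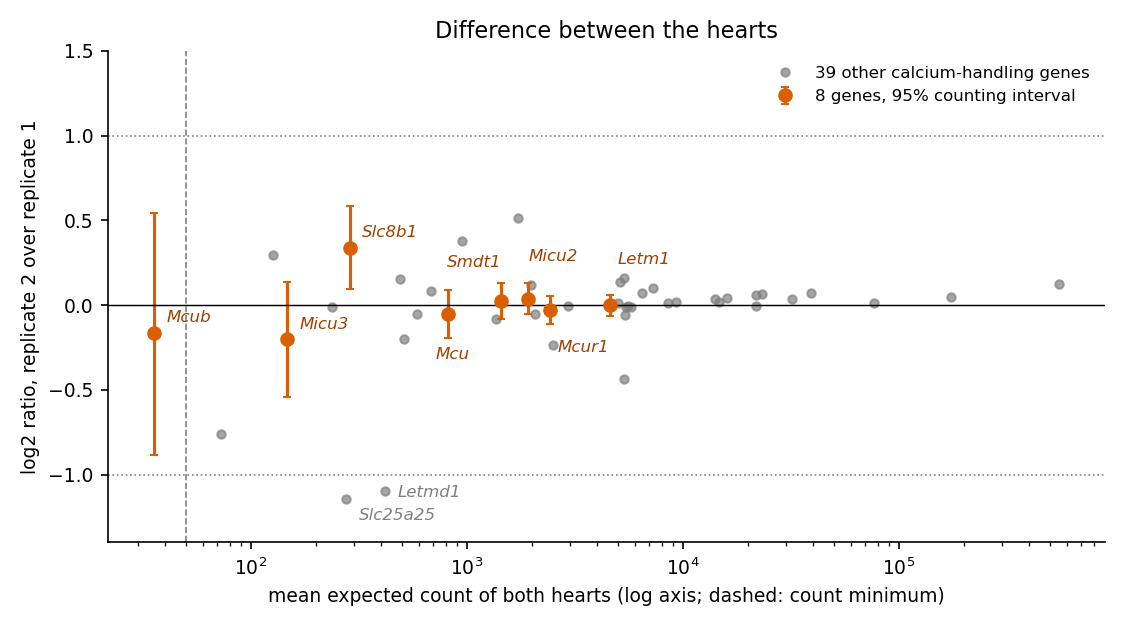
Log2 ratio of replicate 2 over replicate 1 against the mean expected count (log axis) for the 8 genes (orange, with 95% counting intervals) and 39 other calcium-handling genes (grey); dotted lines mark 2-fold. The interval of Slc8b1 alone lies clear of 0 among the 8, and Letmd1 and Slc25a25 lie below the lower dotted line.

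Below the level of the gene, models annotated as retaining an intron summed to more counts in replicate 2. Over the 8 genes, the 6 retained-intron models had 88.7 and 137 expected counts, 1.49-fold higher in replicate 2, and 188 and 274 estimated counts in the second quantification, 1.41-fold higher. Over all nuclear protein-coding genes the same class was 1.05-fold and 1.06-fold higher. Of the 6 models, 4 were higher in replicate 2 in both quantifications (Letm1-204, Mcur1-202, Mcur1-203 and Micu3-202). The other 2, Slc8b1-205 and Smdt1-206, were lower in replicate 2 in the first quantification and higher in the second. Thus 4 of 6 were higher in replicate 2 in the first quantification and 6 of 6 in the second. Over all nuclear protein-coding genes, 56.0% of retained-intron models were higher in replicate 2 in the first quantification and 58.3% in the second. These shares are of models with a mean count of at least 50. None of the 6 reached that count in the first quantification, so the shares are not a like background for them. Mcur1-202 had 6.35 and 19.6 expected counts (posterior SDs 2.14 and 3.54), and Mcur1-203 had 24.7 and 47.7 (4.69 and 5.87). Micu3-202 had 9.52 and 14.4 (0.73 and 0.61). Letm1-204 had 32.9 and 44.5, with posterior SDs of 9.76 and 10.7 that are close in size to its difference. The protein-coding models of the 8 genes summed to 0.984-fold and 0.975-fold. Models of the nonsense-mediated decay class were 1.33-fold and 1.75-fold higher in replicate 2 as a sum, beside 1.00-fold and 1.01-fold over all genes. That class held 4 models. Letm1-205 made up 272 and 444 of its 467 and 642 expected counts. In the second quantification Letm1-205 made up 234 and 360 of 259 and 467 estimated counts, and Smdt1-204 rose from 1.67 to 93.0. These sums therefore follow few models and do not describe the 8 genes as a set. Mcu-204, the model of this class in the pore gene, was lower in replicate 2 in both quantifications, with 19.3 and 6.06 expected and 23 and 14 estimated counts. These are descriptions of 2 libraries and of few counts. What these sums come from was not tested.

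**Figure D5:**
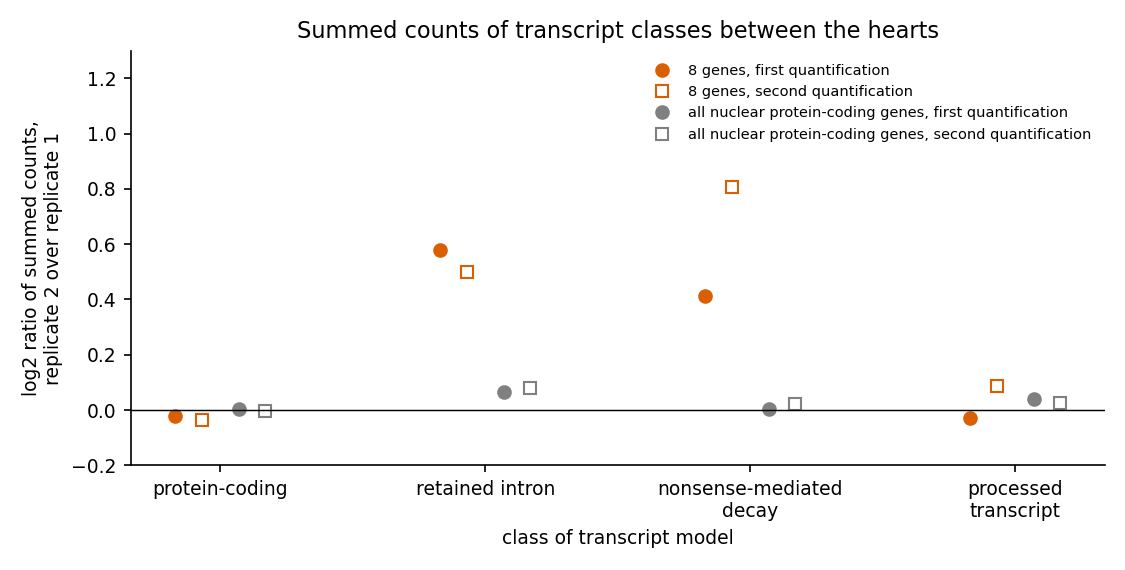
Log2 ratio of summed counts, replicate 2 over replicate 1, by class of transcript model, for the 8 genes (orange) and all nuclear protein-coding genes (grey) in both quantifications. The retained-intron and nonsense-mediated decay sums of the 8 genes lie above 0 in both quantifications, and those of all genes lie near 0.

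The wider machinery of mitochondrial calcium was read through a list of 39 other genes, all of which were measured. In both hearts 38 of them reached 1 TPM, against 49.7% of all nuclear protein-coding genes. At 5 TPM the count was 32, for which no share over all genes was computed. The median level of the 39 was 55.1 TPM. The highest were Atp2a2, the calcium pump of the sarcoplasmic reticulum (4138 TPM), the phosphate carrier gene Slc25a3 (920 TPM), Ogdh of the calcium-sensitive oxoglutarate dehydrogenase (620 TPM), the outer-membrane channel gene Vdac1 (382 TPM) and the release channel gene Ryr2 (362 TPM). The lowest were the ATP-Mg/phosphate carrier genes Slc25a25 (2.83 TPM) and Slc25a24 (2.46 TPM), Letm2 (2.33 TPM), the IP3 receptor gene Itpr3 (1.97 TPM) and Efhd1, an EF-hand gene (1.57 and 0.93 TPM in the 2 hearts). Letm2, the paralog of Letm1, was thus far below Letm1 by any of its measures.

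Of these 39 genes 2 differed 2-fold between the hearts, both higher in replicate 1, against the 1.28% of all genes tested. Letmd1, which encodes a LETM1-domain protein of mitochondria, had 567 and 273 counts (log2 -1.10), and Slc25a25 had 376 and 175 (log2 -1.14). With a difference of 25% or more as the rule, 4 of the 39 were higher in replicate 1 and 2 in replicate 2, where 14% of all genes tested pass in either direction; the 2 were Ucp3 (log2 0.51) and the pyruvate dehydrogenase phosphatase gene Pdp1 (log2 0.38). Their median log2 ratio was 0.016. Adipocyte markers moved the same way as Letmd1 and Slc25a25: 6 of 6 measured of the 7 listed were higher in replicate 1 (median log2 -3.07). The list summed to 478 and 371 TPM, most of it Fabp4, which had 382 and 349 TPM (log2 -0.16). Ucp1, the uncoupling protein of brown fat, had 31.6 and 0.89 TPM. Erythroid markers summed to 20328 and 9336 TPM, all 6 higher in replicate 1. Their part in these differences was not tested.

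Beside 12 nuclear genes of general mitochondrial function, the 8 genes were low. The reference genes ran from 23.3 TPM (Tfam, the packaging factor of mitochondrial DNA) to 3369 TPM (Atp5b, of ATP synthase), with a median of 436 TPM that was 49.3-fold above Mcu. Of the 8 genes 5 lay below all 12 of them (Mcur1, Mcu, Slc8b1, Micu3 and Mcub). Smdt1 lay above 2 of the 12. The reference genes differed little between the hearts, with log2 ratios from -0.082 to 0.12 and a median of 0.052.

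The hearts expressed the markers of cardiac muscle: all 7 cardiomyocyte markers passed 1 TPM, and they summed to 27182 and 29800 TPM, each higher in replicate 2. Heart tissue also holds other cells. Macrophage markers summed to 62.6 and 59.8 TPM (5 of 5 at 1 TPM in both hearts) and endothelial markers to 181 and 193 TPM (5 of 5), where 4 of 5 had the higher scaled count in replicate 1 and Kdr in replicate 2. Fibroblast markers summed to 440 and 384 TPM (5 of 5), with 4 of 5 higher in replicate 1, and smooth muscle markers to 92.7 and 94.4 TPM (4 of 4), with 3 of 4 higher in replicate 1. Neuron and glia markers summed to 3.24 and 2.24 TPM, with 1 of 6 at 1 TPM in both hearts and the neuronal genes Snap25, Syt1 and Tubb3 each below 0.2 TPM. Of the skeletal muscle markers only Ckm, which heart muscle also expresses, reached 1 TPM. Myh2, of fast skeletal muscle, was at 0 TPM in both hearts, with 0 and 1 counts. Which cells held the low Mcub and Micu3 transcripts was not tested, and in whole tissue fewer cells of a type and less RNA per cell cannot be told apart.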

How the data were processed

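Total RNA of 2 hearts was sequenced, and the deposited tables were used as they are. The first quantification gives, per gene and transcript, the authors' expected counts, TPM, FPKM and isoform percent, with posterior SDs and TPM intervals, per the file headers. The second, deposited per transcript as estimated counts and TPM (per the file headers), was summed here per gene. Genome build mm10 and annotation M21 are named in the deposited files' notes; the quantification tools are not stated in these sources. The libraries held 41846508 and 42481559 expected counts, with 0.487% and 0.47% on spike-ins. The intervals of log2 ratios cover counting error only, and the level of the deposited TPM intervals is not stated.

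Expected counts were scaled with edgeR 4.0.16 TMM factors (DESeq2 1.42.0 size factors as an alternative), and log2 ratios took a prior count of 1. A gene was called different at a mean count of 50 and a 2-fold ratio; with 2 hearts no model test was fitted. The procedure was tested on simulated data for the 12541 genes of the comparison between the hearts: genes raised 4-fold gave a median log2 ratio of 1.90, outside the tolerance first set and inside a wider one set after seeing it, and genes lowered 4-fold gave -1.97. Coding-only and single-length levels were chosen after seeing the data: a single length is the effective length of the gene's main coding transcript. The sums by transcript class were also added after seeing the data. Named genes were all 8 members, the 5 highest and 5 lowest of the 39-gene list and any of it past 2-fold; Ucp3, Pdp1, and the marker genes named singly were chosen after their values were seen. The members and the lists were chosen with earlier results of these data known. Overlapping genes on the other strand of Mcu, Micu3 and Letm1 had 0 counts, and Pheta2, on the strand of Smdt1, had 28 and 24. Sequences and coordinates are from GENCODE M21; Python 3.11.15 was used.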

Additional observations from a re-analysis of the deposited data

How the results depend on the processing

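Of 68 recomputed values of the main comparisons, 58 stayed within a yardstick and 10 moved further. For level ratios it was the spread between the hearts, and for counts a factor of 1.5. For the median log2 ratio of the 7 genes it was the SD across those genes (0.162), not a spread between hearts. Its 7 recomputed values are among the 58. Of 104 further values, of single genes, 34 moved further: 25 levels in TPM, 8 protein-coding shares and 1 log2 ratio between the hearts. In the second quantification 7 of the 8 levels did. The 58 include the 7 ratios without each heart and the 7 by FPKM, which could not move further by construction. They also include counts of detected genes, 7 of the 8 and 38 of the 39, which could not rise by a factor of 1.5. The fall from 7 to 5 of the 8 at 5 TPM counted as within that factor. The tally of 58 is therefore no measure of stability. The count of genes differing between the hearts went from 0 at 2-fold to 1 (Slc8b1) at a difference of 25%. The log2 ratio of Smdt1 to Mcu, 3.04, was 3.75 in the second quantification and 2.84 over coding models. That of Mcub to Mcu, -3.24, was -3.33 over coding models and -3.34 with a single length. That of Mcur1 to Mcu, 1.00, was 1.32 in the second quantification and 0.95 over coding models. That of Letm1 to Slc8b1, 3.62, was 4.24 in the second quantification, 2.41 over coding models and 3.12 with a single length; the cause was not tested for any of these. With 2 hearts, a value without either is that of the other heart and cannot move by more than their spread, so it says nothing of stability. TPM rescaled to nuclear protein-coding genes raised all 8 levels, Mcub to 2.49 TPM and Mcu to 23.4 TPM, and put all 8 past 1 TPM. No paired analysis was possible because the series has a single group. Depth limits Mcub (37 and 34 counts) and Micu3 most.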
